A study of Mus musculus with 34 samples.

Results

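The genes described here are 10 genes that mark macrophages and other cells of the immune system: the complement genes C1qa, C1qb and C1qc, Lyz2, Adgre1, Cd68, Csf1r, Ptprc, H2-Ab1 and Cd74. They were chosen by name, and each was read from its probe with the highest mean signal. A probe was matched for 9 of the 10, out of 33172 gene names on the array; no probe was matched for Cd68, the gene of a lysosomal protein of macrophages, which was not analysed here. The material was 34 one-colour arrays in 17 groups of 2 biological replicates, all from C57BL6/j mice of 6 to 8 weeks. One group was whole testes. Sertoli cells, the somatic cells that nurse the germ cells inside the seminiferous tubule, were sorted by FACS from wild-type (WT) or Nanos3-knockout (N3KO) testes, or kept in primary culture with either vehicle or retinoic acid (RA), for which the labels give 1 mM and 24 hours; the unit could not be checked. The other 12 groups were seminiferous tubules in stages I-III, IV-VI, VII-VIII or IX-XII of the epithelial cycle (titles of the samples name the third group VI-VIII, and their source names VII-VIII). Tubules were untreated or came from testes injected 5 days earlier with a lentivirus that carried Venus, a fluorescent protein, or dnRARa, a dominant negative retinoic acid receptor alpha. The labels do not give the marker used for the sort, the promoter in the virus or the cells it infects. The number of arrays, 2 a group, limits the precision throughout.

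Macrophages are the most numerous immune cells of the testis, where they lie between the tubules and on the tubule wall, close to Leydig cells and spermatogonia. C1q is the recognition molecule of the classical complement pathway; its A, B and C chains assemble into 1 protein that binds antibody and dying cells, and tissue macrophages are its main source. Survival of macrophages depends on the receptor Csf1r and its ligands Csf1 and Il34, and presentation of antigen to CD4 T cells uses class II molecules, of which H2-Ab1 encodes a beta chain and Cd74 the chaperone called the invariant chain.

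C1qa, C1qb and C1qc lie side by side on chromosome 4, within 18719 bases in the RefSeq annotation of GRCm38.p6. The windows of up to 250 bases before the gene start are shown for 3 members, C1qb, C1qc and Lyz2. Windows were also held for Ptprc, but they lay inside its annotated span and not before its gene start, and are left out. Capitals mark ACTTCCT, the reverse complement of AGGAAGT, a core of the kind that Ets-family factors such as the macrophage regulator PU.1 bind. The motif was chosen after the sequences were seen and was searched on both strands. Of 32851 windows of 250 bases in the RefSeq promoter table, 2525 (7.69%) held it, so a match is a description and no evidence of binding.
C1qb, GRCm38.p6 chr4:136886201-136886450, minus strand: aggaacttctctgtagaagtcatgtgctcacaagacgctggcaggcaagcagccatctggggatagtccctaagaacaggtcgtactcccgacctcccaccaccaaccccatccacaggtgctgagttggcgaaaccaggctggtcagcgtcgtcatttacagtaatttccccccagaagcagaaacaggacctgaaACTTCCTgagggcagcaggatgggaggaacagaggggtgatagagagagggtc
C1qc, GRCm38.p6 chr4:136892937-136893164, minus strand: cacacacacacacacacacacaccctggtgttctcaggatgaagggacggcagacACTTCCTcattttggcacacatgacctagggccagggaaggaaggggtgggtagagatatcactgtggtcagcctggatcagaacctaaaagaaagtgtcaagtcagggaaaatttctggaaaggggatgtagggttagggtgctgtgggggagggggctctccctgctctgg
Lyz2, GRCm38.p6 chr10:117282273-117282522, minus strand: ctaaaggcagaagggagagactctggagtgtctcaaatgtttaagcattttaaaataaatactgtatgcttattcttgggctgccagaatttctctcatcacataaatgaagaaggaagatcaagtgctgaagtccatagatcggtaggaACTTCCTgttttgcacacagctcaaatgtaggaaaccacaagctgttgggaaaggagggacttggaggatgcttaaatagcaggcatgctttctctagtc
The first base of the motif lay 53 bases before the gene start in C1qb, 173 bases in C1qc and 100 bases in Lyz2.

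Levels are given as log2 of the processed signal minus the 75th percentile of the same array, so that 0 is the level of that percentile; levels of different probes are not compared. A difference is the first group minus the second on this log2 scale, with its standard error (SE). A gene is said to have risen, fallen or changed where limma gave an adjusted p under 0.05 over all genes tested. The p-values rest on the spread between biological duplicates, estimated jointly over all groups of a model and not from the compared groups alone. That spread can differ between groups: the standard deviation of Adgre1 was 2.1 in sorted knockout cells, 0.04 in whole testes and 0.15 in cultured cells with vehicle. The chosen probes of C1qa, C1qb, C1qc, Lyz2, Adgre1, H2-Ab1 and Cd74 were well above background on all 34 arrays, that of Csf1r on 33 and that of Ptprc on 26. In bulk RNA, more cells of a type and more RNA per cell cannot be told apart.

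The groups were ordered alike by the 3 C1q genes. By the mean of C1qa, C1qb and C1qc, the sorted knockout cells were highest at 3.83 and the sorted WT cells next at 0.84. Whole testes (-0.84) lay among the virus-injected tubules (-0.78 to -1.59), the untreated tubules were lower (-2.9 to -3.14), and the cultured cells were lowest at -4.01 with vehicle and -4.07 with RA. Most neighbours in this order were not separated by their replicates: of 16 steps from one group to the next, the arrays overlapped in 12 for C1qa, 12 for C1qb and 11 for C1qc. The separate steps included those on either side of the sorted WT cells for C1qa and C1qc.

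**Figure D1:**
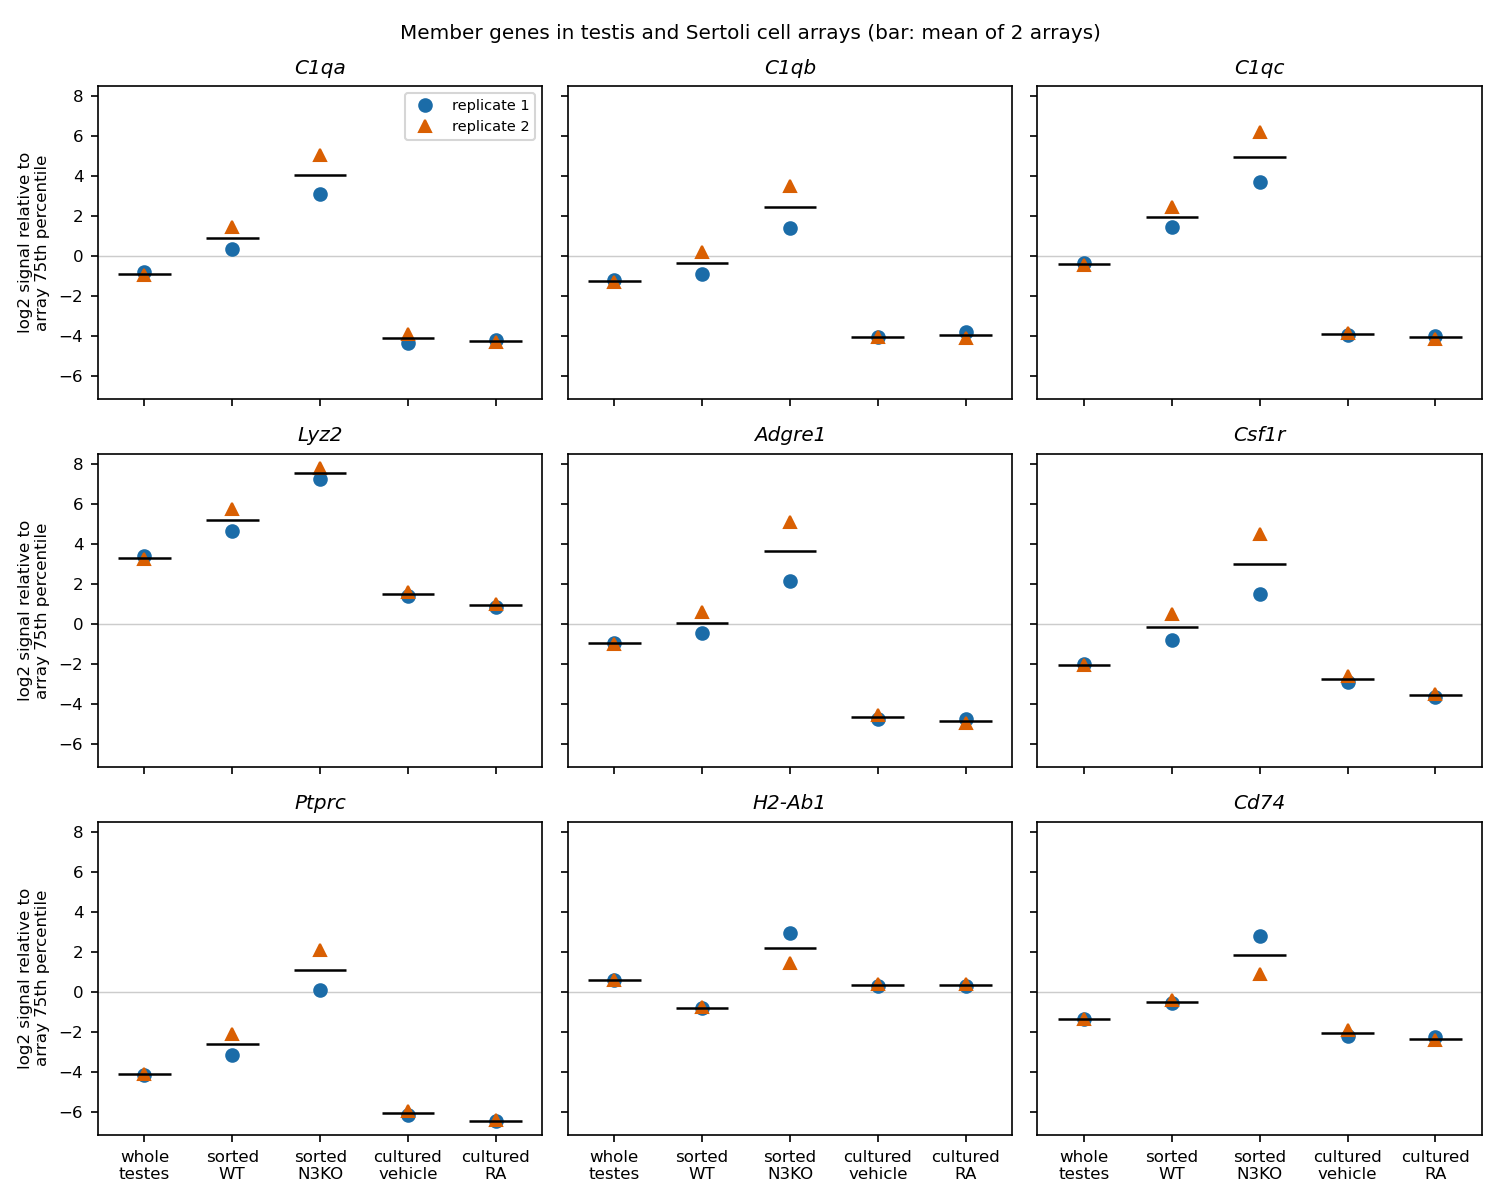
Level of each measured member (log2 signal relative to the array's 75th percentile) on each of the 10 arrays of whole testes, sorted WT, sorted N3KO and cultured Sertoli cells; circles are replicate 1, triangles replicate 2 and bars the mean of 2 arrays. Both sorted N3KO arrays lie above both sorted WT arrays for every gene shown, and their 2 replicates lie apart by 0.55 for Lyz2 and by 2.97 for Csf1r.

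The comparison of sorted knockout with sorted WT cells asked what differs in the Sertoli cell fraction of a testis that lacks Nanos3, an RNA-binding protein that germ cells need to survive. Nanos3 itself was at -3.19 and -4.41 on the WT arrays and at -7.03 and -7.19 on the knockout arrays, where it was not well above background. All 9 measured members were higher in the knockout cells, by 2.31 to 3.7 on the log2 scale, with the C1q genes up 7.1-fold to 9.08-fold. Over all genes 29.2% were called higher in this comparison and 50.8% were called in either direction (10828 of 21307), and the members' median difference of 2.98 stood beside 0.128 for all genes tested. The arrays of the 2 groups did not overlap for any of the 9, which held for 40.9% of all genes in this direction.

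Among the complement recognition genes, C1qa was at 0.34 and 1.46 in WT cells and at 3.1 and 5.07 in knockout cells. The knockout arrays were both above the WT arrays; the difference was 3.18 (SE 0.63, limma adjusted p = 0.00563), which is 9.08-fold. C1qb went from -0.91 and 0.2 to 1.41 and 3.53, a difference of 2.83 (SE 0.66, limma adjusted p = 0.011). C1qc went from 1.47 and 2.47 to 3.7 and 6.18, a difference of 2.97 (SE 0.73, limma adjusted p = 0.0136). In all 3 genes the second array of each group was the higher one.

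Lyz2, which encodes the lysozyme of macrophages and granulocytes, was at 4.67 and 5.75 in WT cells and at 7.24 and 7.79 in knockout cells (2.31, SE 0.34, limma adjusted p = 0.00154). Adgre1, the gene of the macrophage surface protein F4/80, rose from -0.47 and 0.58 to 2.15 and 5.11 (3.57, SE 0.86, limma adjusted p = 0.0123). Its second knockout array was 2.96 above the first, a spread almost as wide as the difference between the groups. Csf1r showed the same order of arrays, from -0.8 and 0.5 to 1.5 and 4.48 (3.14, SE 0.89, limma adjusted p = 0.023). Ptprc, the gene of CD45 on nearly all leukocytes, rose 13-fold, from -3.15 and -2.11 to 0.09 and 2.07 (3.7, SE 0.61, limma adjusted p = 0.00252).

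The class II genes ran the other way between the replicates. H2-Ab1 was at -0.8 and -0.78 in WT cells and at 2.95 and 1.44 in knockout cells (2.98, SE 0.42, limma adjusted p = 0.00116), so its first knockout array was the higher one. Cd74 behaved alike, at -0.57 and -0.42 in WT cells and at 2.81 and 0.87 in knockout cells (2.33, SE 0.54, limma adjusted p = 0.0107). The second knockout array minus the first was -1.51 for H2-Ab1, -1.94 for Cd74, -2.18 for H2-Aa and -1.13 for H2-Eb1, the other class II chains, against 1.97 to 2.97 for the C1q genes, Adgre1, Csf1r and Ptprc. Mrc1 and Cd163, scavenger receptors of resident macrophages, differed by 3.61 and 4.95 between these 2 arrays. For both genes the first knockout array lay below the higher WT array, at 0.68 and 0.23 times its signal, so knockout and WT arrays were not separate. Itgax, the gene of CD11c on dendritic cells, was at 0.02 on the first knockout array and -2.48 on the second. Cd14, a monocyte gene that is not of class II, differed by -0.93, the direction of the class II genes.

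Leaving out a knockout array moved the sizes but no call: without the first, Adgre1 differed by 5.06, Csf1r by 4.63 and Cd74 by 1.36, and without the second by 2.09, 1.66 and 3.31. Without the first sorted WT array only C1qa, Lyz2, Ptprc and H2-Ab1 kept their call, and with the spread estimated from these 4 arrays alone only Lyz2, Ptprc and H2-Ab1 did; in that last fit 27.9% of all calls were higher, in place of 57.5%. With median scaling the all-gene median was 0.689 in place of 0.128, which moved the share of calls that were higher from 57.5% to 78.1% and kept all 9 members called higher. WT and knockout cells lay on different slides scanned on the same day, so slide and genotype cannot be told apart. Array quality differed as well: 16.287% to 19.06% of spots lay below their local background on knockout arrays, against 0% to 0.009% on WT arrays. The part of this in the members' difference was not tested.

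Other genes of macrophages and of these pathways rose as well. Of 33 further macrophage and myeloid genes tested, 20 rose, none fell and 13 were not called (median 2.19). Among those that rose were Cd83 by 3.55, the inhibitory Fc receptor gene Fcgr2b by 2.87 and the actin-binding genes Coro1a by 3.03 and Lcp1 by 2.96. Of 19 complement genes other than C1q, 9 rose, including the integrin chain Itgb2 of complement receptors by 3.09, Cfi by 2.29 and properdin, Cfp, by 1.38, while 1 fell, Cd55, which protects cells from complement (-2.49). Of 11 class II pathway genes 8 rose, led by H2-DMb1 (2.91) and the lysosomal protease gene Ctss (4.09), and 1 fell, the class II transcription factor gene Rfx5 (-0.75, named after its value was seen). Of 26 growth factor, cytokine and chemokine genes of macrophages 17 rose and none fell, including Csf2ra (2.62), Cxcl16 (1.71) and Csf3r, which was at least 8.52-fold higher. Of the 26 genes, 21 had both WT arrays well above background. Csf3r was so on neither WT array and entered the test through the knockout cells alone, so its call adds no support. The medians of these lists (0.66 to 2.32) stood beside 0.13 over all genes tested.

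Markers of other leukocytes did not move together. Of 9 tested, 3 rose (Itgax by 3.76, Zbtb46 by 0.9 and Cd3e by 0.89, the last named after its value was seen) and 2 fell, Cd3d by at least 20.4-fold and Mpo by at least 2.05-fold. Cd3d and Mpo entered the test through the WT cells alone, so their calls add no support. Cd3d, a T cell gene, was at 2.14 in whole testes, and S100a8, S100a9 and Mcpt4 were not well above background in either sorted group. The cell make-up of the 2 fractions differed widely at the same time. All 19 spermatid genes fell, and their summed signal was 755 to 1120 times the 75th percentile in WT cells and 2.34 to 2.97 in knockout cells. Sertoli genes rose for 12 of 22 and fell for 1, Rhox5 (summed 94.1 to 329 against 336 to 352), Leydig genes fell for 4 of 10 (1250 to 1270 against 427 to 796), 1 of 8 peritubular myoid genes and 2 of 2 erythroid genes fell, and none of 11 endothelial genes was called. In whole testes the Leydig genes summed to 63.5 to 64.1, so both sorted fractions held far more Leydig transcript than the testis did. The macrophage and myeloid list summed to 73.4 to 97.2 in WT cells and 117 to 560 in knockout cells; the part of these changes in the members' rise was not tested.

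Against whole testes, the sort of WT cells raised C1qc by 2.36 (SE 0.73, limma adjusted p = 0.0207), C1qa by 1.78 (SE 0.63, limma adjusted p = 0.0353) and Lyz2 by 1.89 (SE 0.35, limma adjusted p = 0.00179). Whole testes were at -0.32 and -0.46 for C1qc, below both sorted WT arrays. These 3 of 9 members stood beside 38.9% of all genes called higher, so the members' share was near that of all genes. H2-Ab1 fell from 0.57 on both arrays (-1.36, SE 0.42, limma adjusted p = 0.0204), beside 40.3% of all genes called lower. Csf1r (1.89, limma adjusted p = 0.088) and Ptprc (1.49, limma adjusted p = 0.0581) missed the threshold. Of the 3 rises only that of Lyz2 remained called without sorted WT replicate 2 or without either whole testis array, and the fall of H2-Ab1 was lost on leaving out any of the 4 arrays. With median scaling C1qa lost its call too (1.64, limma adjusted p = 0.0639).

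Cultured Sertoli cells had low levels of the C1q genes and Adgre1. With vehicle, C1qa was at -4.34 and -3.87, C1qb at -4.05 and -4.01, C1qc at -3.95 and -3.82 and Adgre1 at -4.76 and -4.54, each below both sorted WT arrays. Against sorted WT cells 8 of 9 members were lower, beside 42.1% of all genes. C1qc differed most, by -5.85 (57.9-fold), followed by C1qa at -5.01 (32.1-fold) and Adgre1 at -4.71 (26.1-fold). Lyz2 fell by 3.71, C1qb by 3.67, Ptprc by 3.43, Csf1r by 2.59 and Cd74 by 1.55. Ptprc was well above background on 1 of 2 cultured arrays and entered this test through the sorted WT cells alone. H2-Ab1 alone went up, to 0.3 and 0.4 (1.14, limma adjusted p = 0.0417), beside 32.8% of all genes; that call was lost when any 1 of the 4 arrays was left out, as was that of Cd74. The call of Csf1r was lost without sorted WT replicate 2 (-1.95) or either cultured array (-2.43 and -2.76). Culture lay on a slide and scan day of its own, so both cannot be told apart from the culture itself. With median scaling the all-gene median went from -0.179 to 0.747 and the share of calls that were higher from 43.8% to 66.8%; 6 members then remained called lower, without Csf1r and Cd74.

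Cultured cells with RA and with vehicle were compared on 1 slide. Of the 8 tested, none was called in either direction, beside 5.48% of all genes (1091 of 19895, with 3564 at an unadjusted p under 0.05); without any 1 of the 4 arrays 359 to 374 genes were called. C1qa was at -4.17 and -4.29 with RA (-0.13 against vehicle, SE 0.63). The largest difference among members was that of Csf1r, at -2.91 and -2.58 with vehicle and -3.62 and -3.51 with RA (-0.81, SE 0.88, limma adjusted p = 0.752), which do not overlap; with the spread of these 4 arrays alone it was called, as was Lyz2. Ptprc was not well above background with RA. Both ligands of Csf1r did change: Il34 rose from between -0.78 and -0.73 to between 1.58 and 1.6 (2.35, SE 0.32, limma adjusted p = 0.00768), and Csf1 fell from between 1.88 and 1.97 to between 1.2 and 1.31 (-0.67, SE 0.13, limma adjusted p = 0.028). The chemokine genes Cxcl12 (-1.85) and Cxcl16 (-0.92), the complement genes C1s1 (-0.74) and Cfb (-0.86) and the myeloid gene Cd83 (-1.63) fell as well. These 7 were all the genes called in the 5 lists of immune genes, and were named after their values were seen.

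Untreated tubules held less of most members than whole testes. There 8 of 9 members were higher in whole testes, beside 36.1% of all genes: C1qa by 2.79 (SE 0.36), C1qc by 2.44, Lyz2 by 2.37, Csf1r by 2.15, C1qb by 1.28, Cd74 by 1.03, Ptprc by 0.86 and H2-Ab1 by 0.78. Ptprc entered this test through whole testes alone, since no untreated stage group had both arrays well above background for it. Adgre1 did not pass (0.4, limma adjusted p = 0.525), and its values in untreated tubules ran from -2.73 to 0.35, on both sides of the -0.95 and -1 of whole testes. Median scaling shifted the all-gene median from 0.24 to -0.072 and the share of calls that were higher from 68.3% to 38.9%; Cd74, Ptprc and H2-Ab1 then lost their calls, as they did without either whole testis array. With normexp background correction only C1qa, C1qc and Lyz2 kept their calls: C1qb was at 0.63, Csf1r at 0.68 and Ptprc at -0.32. The mean of the 2 Adgre1 probes was called (1.48, limma adjusted p = 0.033). The second probe, at 2.57, was well above background on only 1 of the 10 arrays compared, so that call adds no support. Whole testes and tubules also differed in slide and scan day, which cannot be told apart from the tissue.

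**Figure D2:**
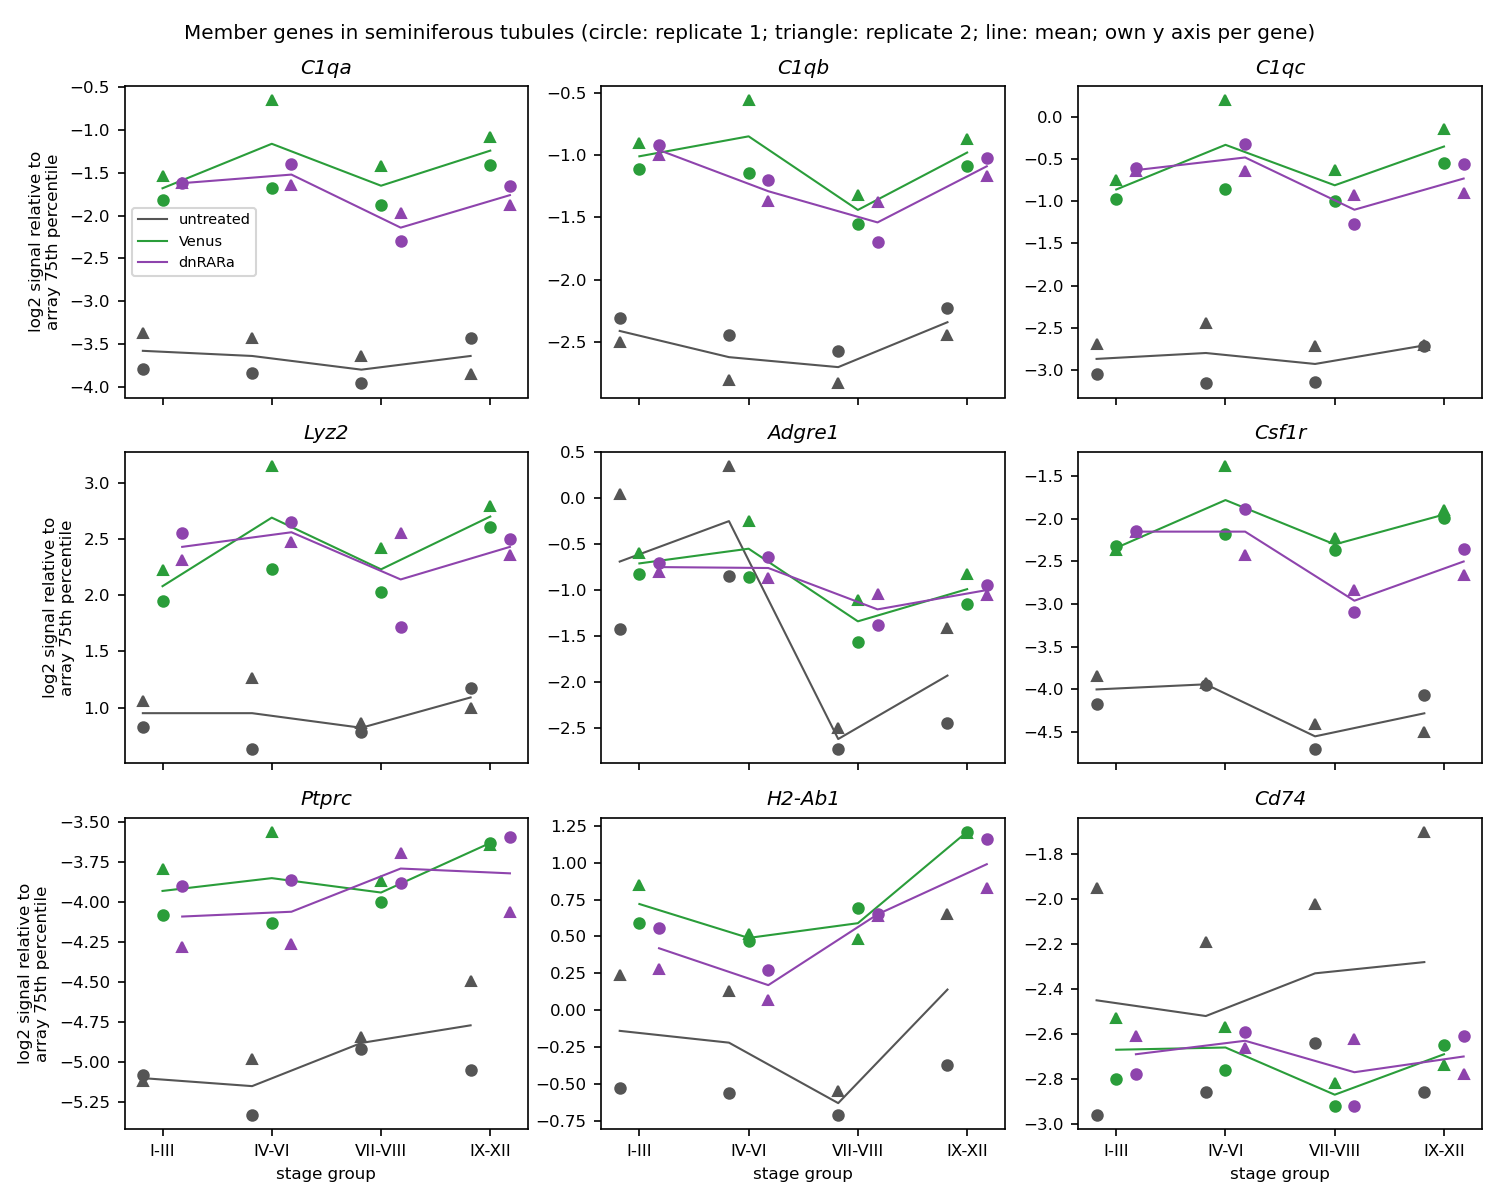
Level of each measured member (log2 signal relative to the array's 75th percentile) by stage group in untreated, Venus and dnRARa tubules; circles are replicate 1, triangles replicate 2 and lines join the means of 2 arrays, with a y axis for each gene. The 8 untreated arrays lie below all injected arrays for the C1q genes, Lyz2, Csf1r and Ptprc, with C1qa at -3.37 or lower untreated and at -2.3 or higher after injection; Adgre1, H2-Ab1 and Cd74 overlap.

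Along the cycle in untreated tubules, the C1q genes stayed level. The means of the 4 stage groups lay between -3.8 and -3.58 for C1qa and between -2.93 and -2.71 for C1qc. Between the later stages (VII-VIII with IX-XII) and the earlier ones (I-III with IV-VI) 2 of 8 members tested were lower, beside 22.9% of all genes. Adgre1 was at -1.42, 0.05, -0.85 and 0.35 on the arrays of the earlier stages and at -2.73, -2.5, -2.45 and -1.41 on those of the later stages, which overlap by 1 array (-1.8, SE 0.31, limma adjusted p = 0.000247). Its other probe was not well above background on any untreated array and gave no second reading. Csf1r differed by -0.45 (SE 0.17, limma adjusted p = 0.0387), a call that 6 alternative settings lost, as did leaving out 5 of the 8 arrays in turn. Stages I-III lay on slide 4, IV-VI on slide 5 and both later groups on slide 6, so slide and stage cannot be told apart. Spots below their local background made up 9.982% to 13.262% on the arrays of the later stages and 0% to 0.014% on those of the earlier stages.

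The comparison of Venus with untreated tubules asked what the control virus and its injection bring, apart from dnRARa. Over the 4 stage groups 7 of 9 members were higher in Venus tubules: C1qa, C1qb, C1qc, Lyz2, Csf1r, Ptprc and H2-Ab1. Of all genes, 36.6% were called higher and 66.9% in either direction (15763 of 23565). The members' median difference of 1.45 stood beside 0.063 for all genes. For 6 of the 7 the 8 Venus arrays lay wholly above the 8 untreated arrays, which was so for 8.78% of all genes. Ptprc is among both counts, yet no untreated stage group had both arrays well above background for it. It entered the test through the Venus groups alone, so its call adds no support.

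C1qa had a median of -3.71 in untreated tubules (-3.96 to -3.37) and of -1.48 in Venus tubules (-1.88 to -0.65). The gap between the arms was wider than either arm's range, and the difference was 2.23 (SE 0.15, limma adjusted p = 1.07e-08) or 4.69-fold. C1qc rose as far, from a median of -2.72 (-3.16 to -2.44) to -0.69 (-1 to 0.2), by 2.24 (SE 0.16, limma adjusted p = 1.85e-08). C1qb rose from a median of -2.47 (-2.83 to -2.23) to -1.1 (-1.55 to -0.56), by 1.45 (SE 0.1, limma adjusted p = 1.31e-08). The second Venus array of stages IV-VI was the highest of the 8 for all 3 genes.

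Csf1r was the member with the smallest adjusted p. Its median was -4.12 in untreated tubules (-4.7 to -3.84) and -2.2 in Venus tubules (-2.37 to -1.38), a difference of 2.1 (SE 0.12, limma adjusted p = 2.77e-09). Its 2 other probes did not give the same size: 1 gave 1.15, with 12 of 16 arrays well above background, and the other -0.27, with 7 of 16. Lyz2 rose from a median of 0.93 (0.63 to 1.26) to 2.33 (1.95 to 3.15), by 1.47 (SE 0.15, limma adjusted p = 7.75e-07), and by 2.18 with its other probe. Ptprc was well above background on 3 of 8 untreated and 8 of 8 Venus arrays, with medians of -5.02 and -3.83 (1.14, SE 0.12, limma adjusted p = 1e-06). Its second probe gave 0.27, and its remaining probe, not well above background on any of the 16 arrays, gave -1.65.

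H2-Ab1 rose less, and its arms overlapped. Its median was -0.45 untreated (-0.71 to 0.65) and 0.64 with Venus (0.47 to 1.21), a difference of 0.96 (SE 0.15, limma adjusted p = 6.01e-05), with 1.49 and 1.14 from its other probes. Cd74, its partner in the class II pathway, did not rise: it ran from -2.96 to -1.7 untreated and from -2.92 to -2.53 with Venus (-0.33, SE 0.18, limma adjusted p = 0.121). Its call as lower was reached without untreated replicate 1 of stages I-III (-0.45) or of IX-XII (-0.47). Adgre1 was not called either (0.47, SE 0.23, limma adjusted p = 0.0777). It was called under median scaling (0.5, limma adjusted p = 0.0417), and without untreated replicate 2 of stages I-III (0.66), IV-VI (0.62) or IX-XII (0.6).

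The stage groups were also tested singly. Of 9 members 7 were higher in stages I-III (26.2% of all genes), 6 in IV-VI (24.5%), 8 in VII-VIII (19.2%) and 7 in IX-XII (21.7%). Each count holds Ptprc, which entered each test through the Venus arrays alone. With normexp background correction 3 were higher in IV-VI (C1qb, C1qc and Lyz2), and 2 were higher (Lyz2 and H2-Ab1) and 2 lower (Ptprc at -1.18 and Cd74 at -1.14) in VII-VIII, where C1qa was at -0.07 and Csf1r at -0.13. With the signal as processed, C1qa differed by 1.9, 2.47, 2.15 and 2.4 in order of stage, and Csf1r by 1.66, 2.16, 2.25 and 2.34. H2-Ab1 missed the threshold in IV-VI (0.71, limma adjusted p = 0.0705). Adgre1 gave -0.02, -0.3, 1.28 (limma adjusted p = 0.038) and 0.94 (limma adjusted p = 0.106), and its call in VII-VIII was lost on leaving out any of the 4 arrays. Calls of H2-Ab1 were also lost without untreated replicate 1 or either Venus array in stages I-III (0.48 to 0.99) and in IX-XII (0.56 to 1.07), and that of Lyz2 in I-III without Venus replicate 2 (1, limma adjusted p = 0.0645). In stages IX-XII, Adgre1 was called without untreated replicate 2 (1.46) and Cd74 without untreated replicate 1 (-0.99). In IV-VI, H2-Ab1 was called without untreated replicate 2 (1.06). The difference between later and earlier stages in the effect of Venus was tested directly, and none of the 9 members was called in either direction, beside 2.39% of all genes (564, with 3933 at an unadjusted p under 0.05, and 233 to 2556 without 1 array in turn); for Adgre1 it was 1.27 (SE 0.45, limma adjusted p = 0.162), and 1.64 without untreated replicate 1 of stages I-III, where it was called (limma adjusted p = 0.0453).

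The size of the rise depends on how background is treated. With normexp correction of the median signal, C1qa differed by 0.93, C1qb by 0.81, C1qc by 1.43, Csf1r by 0.6, Lyz2 by 1.52 and H2-Ab1 by 0.85, and Ptprc turned to -0.32. The all-gene median then went from 0.063 to -0.322 and the share of calls that were higher from 54.7% to 30.2%. Signal of the negative control spots over their local background was 22 to 37.5 units on untreated arrays, 6 to 15 on Venus and 3 to 15 on dnRARa arrays. The processed signal of C1qa before any scaling had a median of 148 units on untreated and 427 on Venus arrays, that of Csf1r 123 and 282, and that of Ptprc 58.3 and 90.3; that of Cd74 was 324 and 192. The untreated and Venus arrays were scanned on different days, so scan day and injection cannot be told apart.

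**Figure D3:**
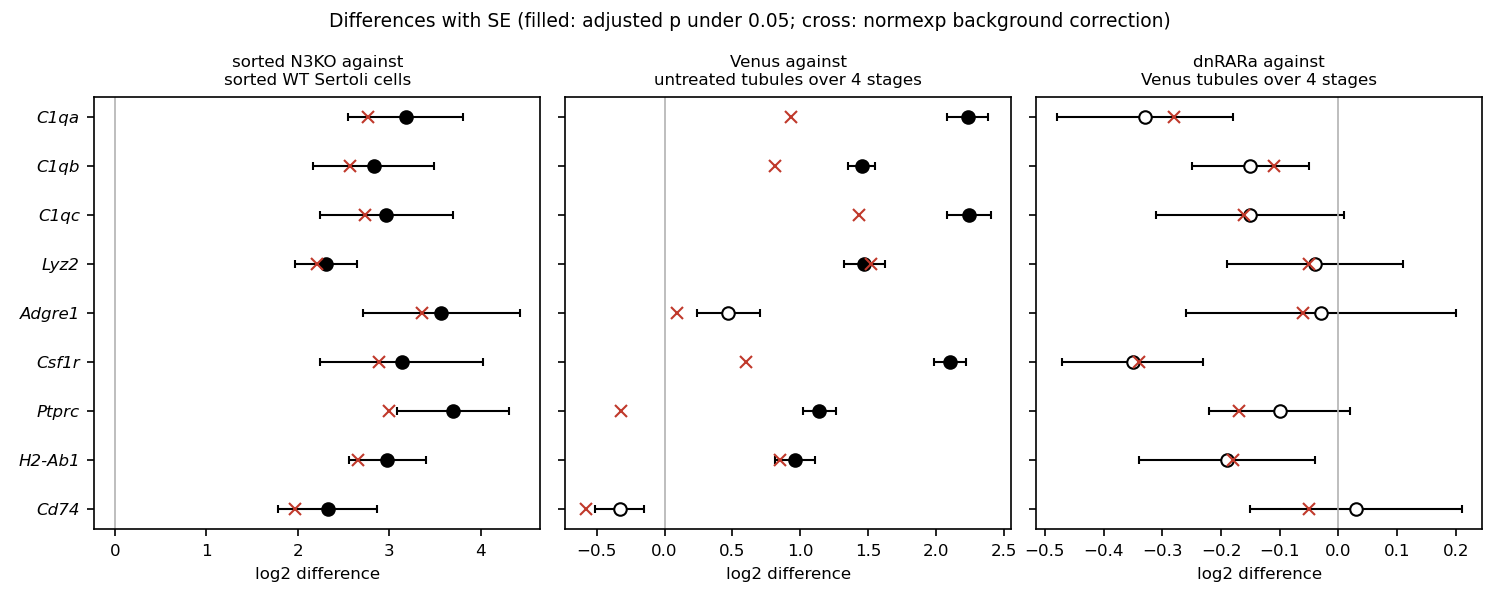
Log2 difference of each measured member with its SE (bars) for sorted N3KO against sorted WT cells, Venus against untreated tubules and dnRARa against Venus tubules; filled circles have an adjusted p under 0.05 and crosses are the values with normexp background correction. All 9 circles are filled on the left, 7 in the middle and none on the right, and the crosses of C1qa (0.93), C1qb (0.81), C1qc (1.43), Csf1r (0.6) and Ptprc (-0.32) lie well below their circles in the middle.

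The lists of other genes are read against the 36.6% of all genes that rose with Venus. Of 33 macrophage and myeloid genes tested, 22 rose and 4 fell (median 1.23, against 0.06 over all genes). Of the 33, 23 had both arrays of an untreated stage group well above background. The others entered the test through the Venus groups alone, so their calls add no support. Cd52 rose by 1.78, Coro1a by 1.81 and Lcp1 by 1.57, and Laptm5, a lysosomal protein of blood cells, was at least 2.1-fold higher. Lcp1 was well above background on 2 of 8 untreated arrays. Laptm5 was so on no untreated array and entered through the Venus groups alone. Among those that fell, named after their values were seen, were Mrc1 (-0.54), Aif1 (-0.81) and Fcgr3 (-1.6). Complement genes split, 11 of 21 rising and 6 falling: Cfb of the alternative pathway was at least 11.4-fold higher, the central component C3 rose by 2.81 and Clu, a complement inhibitor, by 0.7. Of the 21, 16 had both arrays of an untreated stage group well above background. Cfb was so on no untreated array and entered through the Venus groups alone, so its call adds no support. Of 12 class II pathway genes 7 rose, among them Ctss (1.55) and H2-DMb1 (1.08), and 2 fell, Rfx5 (-0.91) and H2-DMa (-0.27, named after its value was seen). Of these 12, 9 had both arrays of an untreated stage group well above background, and the others entered through the Venus groups alone.

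Growth factor and chemokine genes rose for 12 of 22, with Cxcl16 at 1.1, Il34 at 0.7 and Tgfb1 at 0.56, and fell for 2, Csf2ra (-1.16) and Il1b (-1.35, named after its value was seen). Both arrays of an untreated stage group were well above background for 12 of these 22 genes. The others entered through the Venus groups alone, so their calls add no support. Of 18 genes of other leukocytes 9 rose and 2 fell; Mpo, a neutrophil enzyme, rose by 2.53 and Cd3d fell by 1.51. The second faller was Cd5 (-0.88, named after its value was seen). Both arrays of an untreated stage group were well above background for 9 of these 18 genes, and the others entered through the Venus groups alone. Other neutrophil genes did not show what Mpo showed. S100a8 and Elane were not well above background in any Venus group, nor was S100a9 in Venus tubules of stages IV-VI and VII-VIII. Genes of the tubule itself moved too: Sertoli genes rose for 19 of 22 (summed signal 67.2 to 98.7 untreated and 106 to 159 with Venus), peritubular myoid genes for 7 of 8 (22.4 to 39.4 and 34.6 to 55) and Leydig genes for 4 of 9 (7.04 to 18.9 and 7.85 to 20.8). Both arrays of an untreated stage group were well above background for 18 of the 22 Sertoli and 7 of the 8 myoid genes. Spermatid genes rose for 11 of 19 and fell for 2, endothelial genes rose for 3 of 11 and fell for 2, and 1 of 2 erythroid genes rose. The macrophage and myeloid list, which holds Aif1, high in untreated tubules, summed to 70.7 to 157 untreated and 42.1 to 82 with Venus. The part of these shifts in the members' rise was not tested.

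Between dnRARa and Venus, which share the injection, none of the 9 members was called in either direction. Of all genes 12.2% were called (2912 of 23937, with 6338 at an unadjusted p under 0.05). C1qa ran from -2.3 to -1.4 with dnRARa against -1.88 to -0.65 with Venus (-0.33, SE 0.15, limma adjusted p = 0.175), and C1qc from -1.27 to -0.32 against -1 to 0.2 (-0.15, SE 0.16). Csf1r came closest, at -3.09 to -1.88 against -2.37 to -1.38 (-0.35, SE 0.12, limma adjusted p = 0.0766). It was called under median scaling (-0.4, limma adjusted p = 0.0282) and without replicate 1 of Venus (-0.45) or of dnRARa (-0.42) in stages IV-VI; without the former C1qa was called too (-0.45, limma adjusted p = 0.0325). The other members differed by between -0.19 and 0.03, all with overlapping arrays. Under median scaling the share of calls that were higher went from 66.6% to 51.3%. Venus lay on slides 7 and 8 and dnRARa on slides 9 and 10, in pairs that shared a scan day. Slide and virus therefore cannot be told apart. With the slide as a random block no member was called and 1836 genes were.

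Some genes of the immune lists passed the test between dnRARa and Venus tubules, in counts to be read against the 12.2% of all genes called; those named here were chosen after their values were seen. Of 25 growth factor and chemokine genes 6 rose and none fell: Csf2rb, Ccl2, Ccl3, Cxcl1, Il1b and Tnf. Ccl2, which draws monocytes, ran from -4.69 to -0.76 with dnRARa (median -3.91) and from -5.53 to -4.92 with Venus (median -5.11), with no overlap (1.55, SE 0.39, limma adjusted p = 0.0192). Ccl3 was well above background on 6 of 8 dnRARa and on no Venus array and was at least 2.56-fold higher. Cxcl1 was well above background on 5 of 8 dnRARa arrays and 1 Venus array, and Tnf on 3 of 8 dnRARa arrays and no Venus array. Ccl3, Cxcl1 and Tnf entered the test through dnRARa groups alone, so their calls add no support. With dnRARa the highest array was far above the median for Ccl3 (-2.33 against -5.59) and Cxcl1 (-1.71 against -5.5). Of 20 genes of other leukocytes 4 rose, Itgax, Cd4, Nkg7 and Cpa3, and 1 fell, Zbtb46, a dendritic cell factor (-0.26, limma adjusted p = 0.0399). Itgax ran from -4.23 to -1.47 against -6.16 to -4.24, ranges that all but meet (2.24, SE 0.29, limma adjusted p = 0.000229). The share of all genes with separate arrays is not given for this comparison, so the lack of overlap for Ccl2 and Itgax is a description only. Of 33 macrophage and myeloid genes 3 rose: Cd163 by 1.64, the scavenger receptor gene Marco by 1.29 and Aif1 by 0.38. Of 21 complement genes 3 fell: Cfb by 1.82, C3 by 1.07 and C4b by 0.28.

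The members fell into a tight group and a loose one. Over the 17 group means, Pearson's r with the mean of the 3 C1q genes was 0.972 for Ptprc, 0.955 for Lyz2, 0.93 for Csf1r, 0.872 for Adgre1, 0.722 for Cd74 and 0.554 for H2-Ab1. Over the 16 injected arrays, C1qa correlated at 0.96 with C1qc, 0.93 with Csf1r and 0.85 with Lyz2, but at 0.44 with Ptprc and 0.08 with H2-Ab1, whose own correlation with Ptprc was 0.67. Among 14846 genes with a symbol, the 6 others closest to the C1q mean were Clec4a3, a lectin of myeloid cells, at 0.985, Lyl1 and Ly86 at 0.984, Laptm5 at 0.98, Sla at 0.979 and Cybb, the phagocyte oxidase subunit, at 0.976. These values describe group means that share arrays and scaling, and the sorted knockout cells lie at one end of each. A gene needed both arrays well above background in only 1 group to be compared. Laptm5 and Cybb were not well above background in any untreated or cultured group, so their r rests in part on signals near background.

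**Figure D4:**
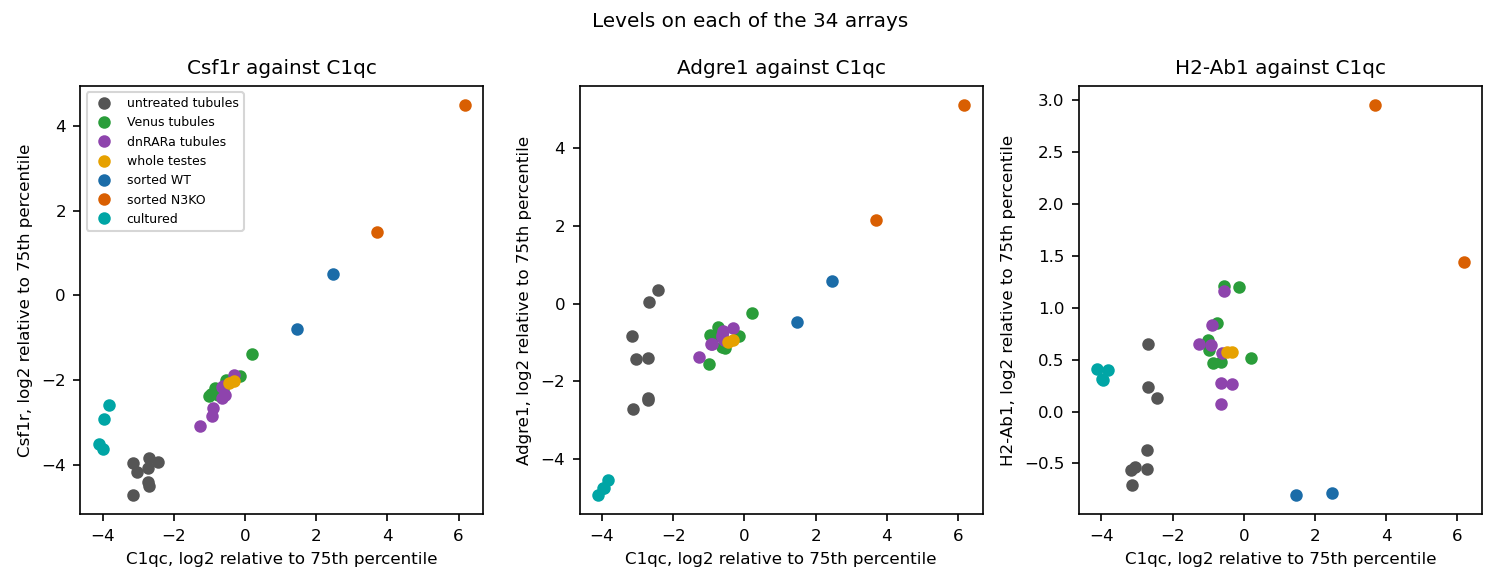
Level of Csf1r, Adgre1 and H2-Ab1 (y axes) against that of C1qc (x axes) on each of the 34 arrays, as log2 signal relative to the array's 75th percentile, coloured by sample kind. Csf1r follows C1qc apart from the cultured cells, where it lies at -3.62 to -2.58; Adgre1 spreads from -2.73 to 0.35 in untreated tubules at nearly equal C1qc; and H2-Ab1 lies at -0.8 and -0.78 in sorted WT cells, below cultured cells that have far less C1qc.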

How the data were processed

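RNA was measured on 34 one-colour Agilent arrays. Values are background-subtracted spot intensity, deposited as the scanner software gave it: per the file headers, the authors ran Feature Extraction 9.5.3.1 (9.5 per the submitters' processing notes), with other columns of 0 or 1 marks for spots well above background, saturated or outlying. Of 45018 spots, 1639 controls were left out, as were 32 to 274 outlier spots per array; 41174 probes remained. Probes were named through RefSeq accessions (23553), symbols (11) or synonyms (59), and 17551 kept their identifier. From 54.89% to 74.42% of spots were well above background, and replicates correlated across genes at 0.9736 to 0.9957. No library or sample was left out.

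The processed signal was put on the log2 scale, less the 75th percentile of each array, and fitted with limma 3.58.1 in R 4.3.3 (data.table version 1.17.8): 1 model for 10 testis and Sertoli arrays (5 residual degrees of freedom), 1 for 24 tubule arrays (12) and 1 for all 34 (17, whole testes against untreated tubules). Genes entered a test where 1 of the groups compared had both arrays well above background; two-sided p-values were adjusted by Benjamini-Hochberg over all genes tested, with a threshold of 0.05. The fit was tested on simulated data. A fold written as "at least" takes, for the dim group, the lowest signal marked as detected on each array.

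The members, lists and alternatives were chosen with earlier results of these data known. Besides members, the rule named up to 4 genes of each of 5 immune lists and up to 2 of each other list by smallest adjusted p in the knockout and Venus comparisons, and the 6 genes closest to the C1q mean. A few genes that the rule or the counts would name are not reported here. Alternatives were other scalings, background correction, detection filters, probe rules, models, blocks and leaving out each array. Normexp (offset 50) used the median signal, since the mean signal was not among the columns used.

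In injected tubules the replicate number is also the scan day, per the file headers, so it pairs Venus with dnRARa; deviations of same-numbered arrays correlated at -0.08 to 0.31 (median 0.11). Elsewhere samples share only a number.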

Additional observations from a re-analysis of the deposited data

How the results depend on the processing

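Among member differences called in the main setting, direction turned only with normexp on the median signal. This was so in 7 of 1235 values from alternatives other than leaving out an array. Differences that were not called, some of them near 0, are not among the 7 and could also change sign. Ptprc turned for Venus against untreated tubules over 4 stages (-0.32), in stages IV-VI (-0.83) and in VII-VIII (-1.18, called lower). It also turned for whole testes against tubules (-0.32). C1qa (-0.07) and Csf1r (-0.13) turned for Venus in stages VII-VIII, and Csf1r for later against earlier untreated stages (0.64). The cause was not tested. Of those values 1133 kept direction and call.

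Counts of members called moved by more than 1.5 times as follows. With normexp, Venus against untreated tubules had 1 lower in place of 0 over stages, 3 higher in place of 6 in IV-VI, and 2 higher and 2 lower in place of 8 and 0 in VII-VIII; cultured against sorted cells had 0 higher in place of 1 and 5 lower in place of 8; whole testes against tubules had 3 higher in place of 8, and 5 with median scaling. With only the arrays compared, the knockout comparison had 3 higher in place of 9, sorted WT cells against whole testes 6 in place of 3 (5 with 1 model for all arrays), and RA 2 lower in place of 0. Median scaling gave 1 lower in place of 0 for dnRARa. Averaging detected probes gave 0 higher for culture. Later against earlier untreated stages had 1 lower in place of 2 with normexp, no detection filter, only the arrays compared, the slide as a random block, detection required on all arrays, 1 model, or averaged probes.

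Leaving out 1 array in turn gave 4 to 9 members higher for the knockout; 7 to 8 higher and 0 to 1 lower for Venus over stages; 5 to 7 higher in I-III, 6 to 7 in IV-VI, 7 in VII-VIII, and 6 to 8 higher and 0 to 1 lower in IX-XII; 0 to 1 higher for the later-stage difference; 0 to 2 lower for dnRARa; 1 to 2 lower for later untreated stages; 1 to 3 higher and 0 lower for sorted WT cells; 0 higher and 6 to 7 lower for culture; and 5 to 8 higher for whole testes.

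With the replicate number as a block, 9 members were called for the knockout (10482 genes) and 0 for dnRARa against Venus (3830 genes), where the numbers pair the arrays and no member's call changed. Where samples share only a number, the block gave 8 for Venus (16270 genes, Adgre1 adjusted p = 0.0287 in limma), 8 in IX-XII and 4 for sorted WT cells (Ptprc adjusted p = 0.035 in limma). A slide block could not be fitted for knockout against WT or culture against sort, nor a scan-day block for Venus against untreated tubules; there the slide as a random block kept 7 members higher (15023 genes).

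Counts over all genes moved by more than 1.5 times from 10828 to 4298 for the knockout (only the arrays compared). For Venus they moved from 15763 to 23669 (no filter) over stages, from 9418 to 4764 (normexp) in I-III, from 8581 to 13001 (normexp) and 13337 (no filter) in VII-VIII, and from 9124 to 4370 (normexp), 14934 (no filter) and 3010 (only the arrays compared) in IX-XII. The later-stage difference went from 564 to 51 (normexp), 328 (no filter), 343 (every-array detection) and 926 (replicate block). For dnRARa the count went from 2912 to 724 (normexp), 4592 (only the arrays compared), 1836 (slide block), 832 (scan day 4) and 1675 (scan day 5, both added after seeing the data). RA went from 1091 to 562 (normexp), 695 (no filter) and 7143 (only the arrays compared), and whole testes from 11327 to 6900 (normexp). Leaving out 1 array moved such counts past 1.5 times for RA (359 to 374, any of the 4 arrays), for the later-stage difference (233 without Venus replicate 1 of IX-XII to 2556 without untreated replicate 1 of IX-XII), for whole testes without their replicate 2 (7342), and for Venus without its replicate 2 in every stage group (5411 in VII-VIII, 5758 in I-III, 5904 in IX-XII and 6075 in IV-VI). The share of calls that were higher moved from 57.5% to 78.1% (median scaling) and 27.9% (only the arrays compared) for the knockout and from 54.7% to 30.2% (normexp) for Venus over stages. Low signals limit Ptprc most: it was well above background on 26 of 34 arrays.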
